A study of Rattus norvegicus with 3 samples.

Results

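The genes described here were chosen by symbol: the syntaxins (Stx), syntaxin-binding proteins (Stxbp), VAMPs, Snap proteins, synaptotagmins (Syt), complexins (Cplx), synapsins (Syn), SV2 proteins, RIMs and Unc13 proteins, with Syp, Bsn, Pclo, Rph3a, Cabp4 and Ctbp2. The rule used no measured value. It found 72 genes in 79 entries among the 16629 genes and unnamed regions of the tables. The 3 libraries, 1 per group, came from adult Sprague-Dawley rats kept on a 14 h light, 10 h dark cycle. They were pineal gland at night (zeitgeber time 19, counted in hours from lights on), pineal gland by day (zeitgeber time 7), and a pool in equal amounts of RNA from 15 other tissues at zeitgeber time 7. The pool held 6 parts of the central nervous system (hindbrain, spinal cord, midbrain, cerebellum, cortex and hypothalamus), 2 endocrine glands (adrenal gland and pituitary), the retina, and kidney, lung, liver, heart, small intestine and skeletal muscle, so a gene made in 1 of them is diluted there and its source cannot be told. The labels do not give the number of glands or animals behind a library.

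Regulated secretion rests on a small set of proteins: SNARE proteins on the vesicle and on its target membrane that pull both membranes together, Sec1/Munc18 proteins and Unc13 proteins that prepare the SNAREs, complexins that clamp them, synaptotagmins that sense calcium, and active zone proteins that hold vesicles at the release site. Photoreceptors and hair cells release transmitter at ribbon synapses, where a protein ribbon built from RIBEYE, a product of Ctbp2, tethers vesicles. Mammalian pinealocytes share a developmental lineage with photoreceptors and contain synaptic ribbons, although they have no light-sensing role in the adult rat.

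With 1 library per group there is no replicate check. Differences are therefore described by size, with no p-value. Levels are FPKM, the number of fragments mapped to a transcript divided by its length in kilobases and by the library's mapped fragments, which can be set side by side between genes because they are per length. Ratios are log2 ratios of FPKM + 1, a scale that understates the fold of genes with low values. In bulk tissue, fewer cells of a type and less RNA per cell cannot be told apart.

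The pineal label held: all 7 pinealocyte markers exceeded the mixed tissues by 4-fold or more in both pineal libraries, with summed levels of 9406 FPKM by night, 8295 FPKM by day and 327 FPKM in the mixed tissues. Neuronal markers bear on a list of synaptic genes. Of 11 found, 8 were under 1 FPKM in each pineal library and 0 in the mixed tissues. Without Slc17a7, a vesicular glutamate transporter that the gland itself expresses strongly, the other 10 summed to 41.6 FPKM by night, 24.5 FPKM by day and 622 FPKM in the mixed tissues. In the night library Camk2a was listed at 0 and in the day library Elavl3. Map2, a microtubule protein of dendrites, made most of the pineal sums, at 34.4 FPKM by night and 17.3 FPKM by day. Among the rod markers, Rom1 was at 313 FPKM by night, 442 FPKM by day and 108 FPKM in the mixed tissues, and Nrl was listed at 0 by night.

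The 72 genes made up 1.67% of all FPKM in the pineal night library, 1.72% in the pineal day library and 0.942% in the mixed tissues. The median gene stood at 9.14, 7.97 and 12.3 FPKM, so the share was larger in the gland while the typical gene was lower. At 1 FPKM or more were 53, 54 and 69 genes, and at 100 FPKM or more 7, 7 and 6. Snap25 was the highest of the 72 in each library. With Syp it weighs heavily in these shares. Snap25 and Syp were at 1217 and 507 FPKM by night and at 1213 and 540 FPKM by day. In the mixed tissues they were at 417 and 120 FPKM.

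**Figure D1:**
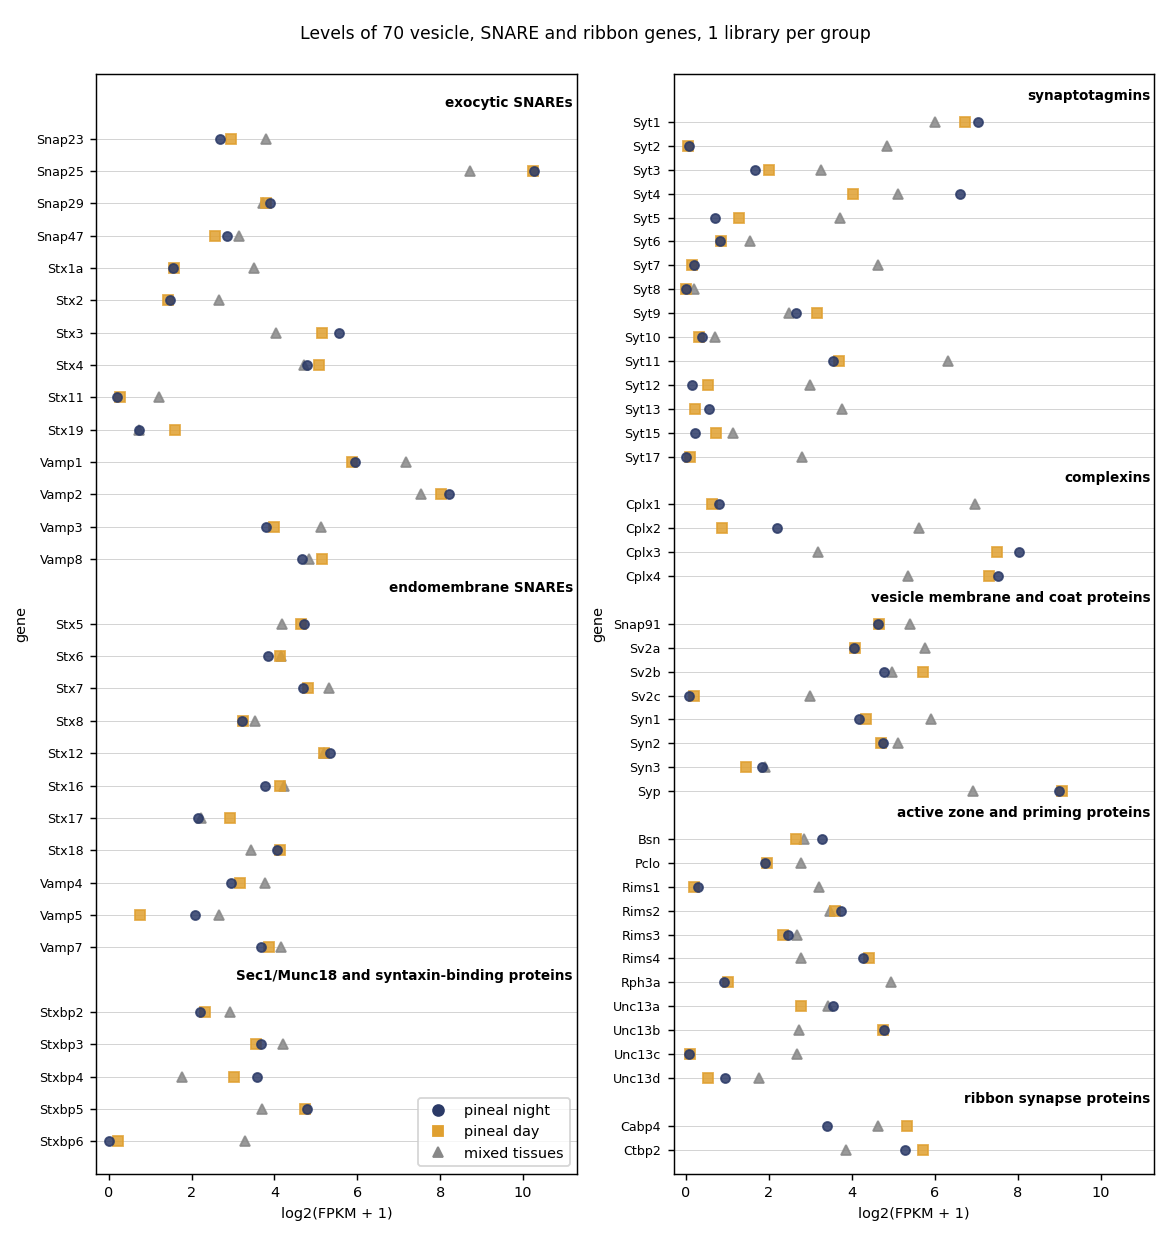
Level of 70 of the 72 genes as log2(FPKM + 1), by role, with 1 point per library (circles, pineal night; squares, pineal day; triangles, mixed tissues). Snap25 and Syp stand furthest to the right, night and day lie close together for most genes, and the complexins split into genes above and far below the mixed tissues.

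Against the mixed tissues, 4 of 69 genes compared lay 4-fold or more above at night, Cplx3, Cplx4, Syp and Unc13b, where 3.09% of all genes compared were. By day 3 of 70 were, Cplx3, Syp and Unc13b, where 2.29% of all genes were. Lower by 4-fold or more were 15 by night and 15 by day, or 21.7% and 21.4% of the genes compared, against 14.4% and 13.2% of all genes. Among them were 7 synaptotagmins (Syt2, Syt5, Syt7, Syt11, Syt12, Syt13 and Syt17), with Cplx1, Cplx2, Stxbp6, Sv2c, Rims1, Rph3a and Unc13c. Many were under 1 FPKM in the gland, such as Cplx1, Stxbp6, Sv2c, Rims1 and Unc13c at both times. Genes of that kind passed the filter only through the mixed tissues, so they could only come out lower. The shares over all genes hold such genes too. Medians of the genes described here were -0.54 by night and -0.54 by day, beside -0.36 and -0.27 over all genes. Both comparisons share the mixed-tissue library, and both pineal libraries enter the night over day comparison too, so these values are not independent.

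**Figure D2:**
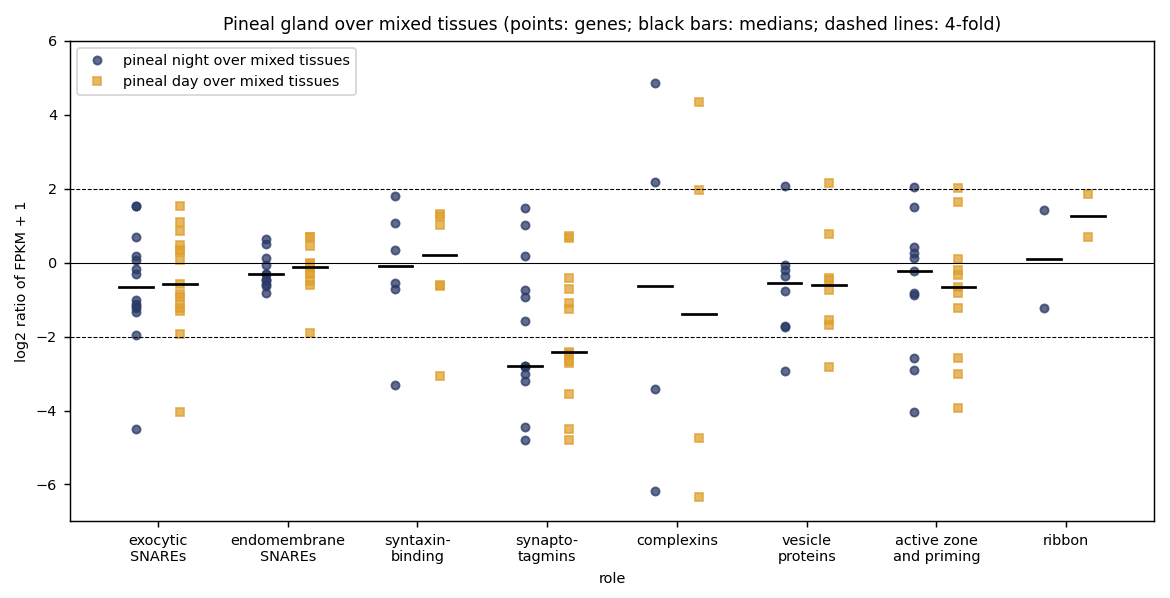
Log2 ratio of FPKM + 1 of the pineal gland over the mixed tissues for each gene compared, by role (circles, night; squares, day), with medians as black bars and 4-fold as dashed lines. Endomembrane SNAREs cluster near 0, apart from Vamp5 at -1.91 by day. Complexins spread from -6.35 to 4.87, and the median synaptotagmin lies at -2.79 by night and -2.43 by day.

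SNAREs of the plasma membrane and of secretory vesicles carry out fusion itself. Snap25, the membrane-bound SNARE of regulated secretion (chr3:124806636-124894653 in rn4, the build of all gene positions given here), was at 1217 FPKM by night, 1213 FPKM by day and 417 FPKM in the mixed tissues, which placed it at rank 3, 2 and 34 of all genes. It made up 97.9% of the summed level of its family by night and 92.7% in the mixed tissues. Its ratio to the mixed tissues was 1.54 on the log2 scale both by night and by day. Its relatives Snap23, Snap29 and Snap47 lay between 4.93 and 14.0 FPKM in the gland. The vesicle SNARE Vamp2 was at 298 FPKM by night, 256 FPKM by day and 184 FPKM in the mixed tissues. Its close relative Vamp1 was on the other side of the mixed tissues, at 60.5 and 57.7 FPKM in the gland by night and by day and 144 FPKM in the mixed tissues (log2 -1.24 and -1.31). Vamp3, a VAMP of constitutive and endosomal traffic, was at 12.8, 14.9 and 33.7 FPKM.

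Among the syntaxins of the plasma membrane, Stx3 and Stx4 held most of the gland's signal. Stx3, the syntaxin of retinal ribbon synapses (chr1:214554520-214597396), was at 45.8 FPKM by night, 34.2 FPKM by day and 15.3 FPKM in the mixed tissues (log2 1.52 and 1.11). Stx4, which serves general exocytosis, was close to the mixed tissues at 26.7, 32.5 and 25.3 FPKM. Stx1a, a partner of Snap25 at conventional synapses, was on the other side of the mixed tissues, at 1.94, 1.99 and 10.4 FPKM. It was just inside 4-fold on the FPKM + 1 scale (log2 -1.95 and -1.93). By plain FPKM it was 5.36-fold lower by night and 5.21-fold lower by day. Its entry lies on an unplaced piece of chromosome 12. Of the summed level of 7 plasma membrane syntaxins, Stx3 held 58.2% by night, 45.4% by day and 13.2% in the mixed tissues, and Stx4 held 33.9%, 43.2% and 21.8%.

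The other 11 syntaxins and VAMPs, mostly of the Golgi apparatus, endosomes and autophagosomes, were grouped as endomembrane SNAREs. On the FPKM + 1 scale, 11 of 11 were within 4-fold of the mixed tissues by night and by day. Of all genes compared, 82.5% and 84.5% were. By plain FPKM, Vamp5 was 7.79-fold lower by day (0.684 against 5.33 FPKM, log2 -1.91). The median log2 ratio of the group was -0.31 by night and -0.11 by day. Stx12, an endosomal syntaxin, was at 39.3, 35.6 and 35.8 FPKM in pineal night, pineal day and mixed tissues, Stx7 at 24.7, 26.9 and 38.5 FPKM, and Stx5, a Golgi syntaxin, at 25.01, 24.01 and 17.2 FPKM.

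Complexins bind assembled SNAREs and hold them ready for calcium. Cplx3 and Cplx4, the forms found at retinal ribbon synapses in the mouse, were the complexins of the gland. Cplx3 (chr8:61354176-61360939) was at 263 FPKM by night, 181 FPKM by day and 8.02 FPKM in the mixed tissues, so its log2 ratio to the mixed tissues was 4.87 by night and 4.34 by day, the highest of the 72 genes. Cplx4 (chr18:62536596-62552045) was at 183, 158 and 39.7 FPKM (log2 2.18 by night and 1.96 by day). The day value is just inside 4-fold and passed it once the libraries were centred on the median of all genes (2.24). Cplx1 (chr14:1732343-1763172) was at 0.745 FPKM by night, 0.555 FPKM by day and 126 FPKM in the mixed tissues (log2 -6.18 and -6.35), the lowest ratio of the 72 by night and by day. Cplx2 was at 3.58, 0.834 and 48.0 FPKM (log2 -3.42 and -4.74). Cplx3 and Cplx4 thus held 58.4% and 40.7% of summed complexin FPKM by night, 53.3% and 46.3% by day, and 3.62% and 17.9% in the mixed tissues.

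**Figure D3:**
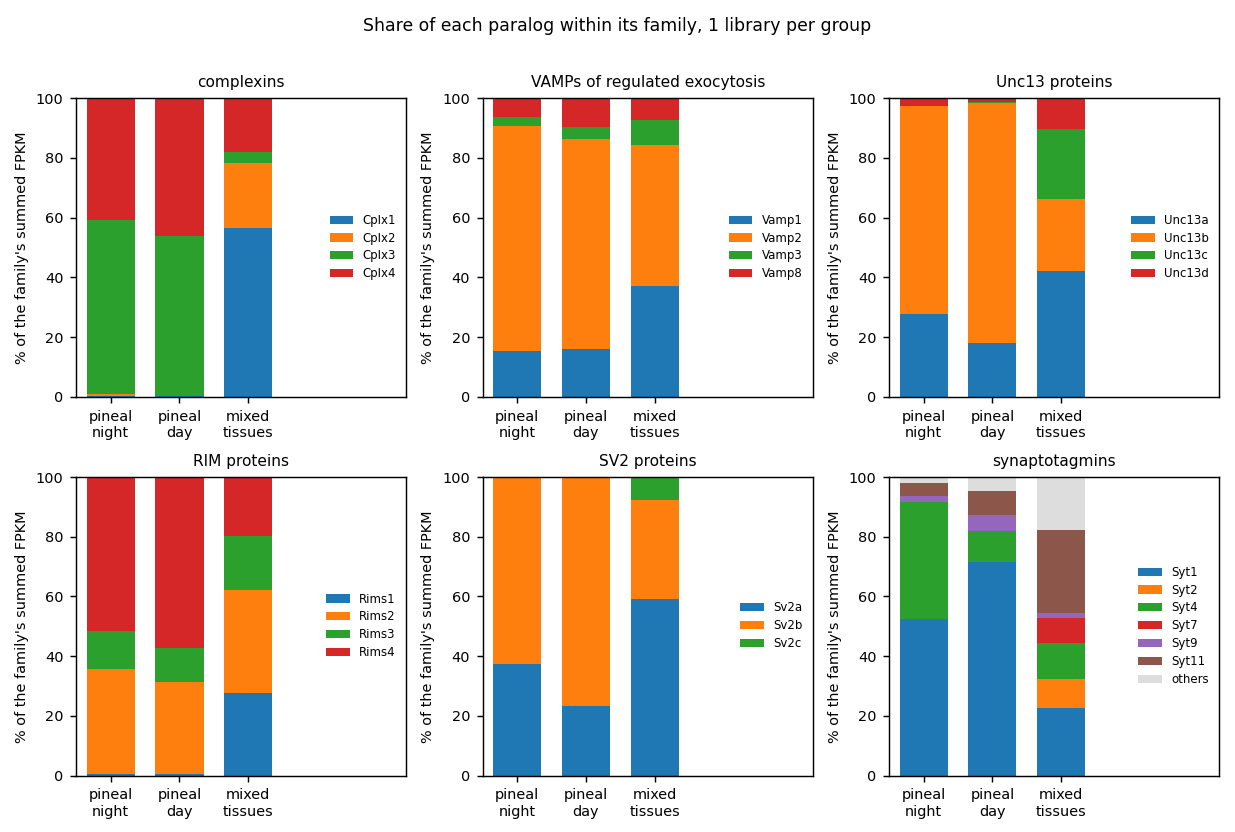
Share of each paralog in its family's summed FPKM (y axis, percent), for 6 families and 3 libraries. In the pineal gland Cplx3 with Cplx4, Unc13b, Rims4, Sv2b and Syt1 take the largest shares, while the mixed tissues are led by Cplx1, Unc13a, Rims2, Sv2a and Syt11; Vamp2 leads its family in all 3 libraries.

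The promoters of Cplx3 and Cplx4, of both ribbon genes and of Syt4, the gene with the largest night over day ratio, were chosen after their values were seen and are shown because CRX and OTX homeobox proteins, regulators of pineal and photoreceptor genes, bind TAATCC, and because cAMP drives the night programme of the rat pineal gland. They are RefSeq sequences of 250 bases before 1 annotated start per gene. That start need not be the one used in the pineal gland. Of the 72 genes, 57 had such a sequence, in 58 windows. Capitals mark TAATCC or its reverse complement GGATTA, the E-box CACGTG, and TGACG or its reverse complement CGTCA (the core of a cAMP response element).
Cplx3 (chr8:66906201-66906450, minus strand, GRCr8): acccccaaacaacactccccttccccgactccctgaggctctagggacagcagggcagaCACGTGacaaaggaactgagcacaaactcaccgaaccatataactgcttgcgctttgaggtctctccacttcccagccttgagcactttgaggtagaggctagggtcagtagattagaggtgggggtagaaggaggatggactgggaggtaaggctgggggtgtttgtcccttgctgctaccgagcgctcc
Cplx4 (chr18:61767755-61768004, minus strand, GRCr8): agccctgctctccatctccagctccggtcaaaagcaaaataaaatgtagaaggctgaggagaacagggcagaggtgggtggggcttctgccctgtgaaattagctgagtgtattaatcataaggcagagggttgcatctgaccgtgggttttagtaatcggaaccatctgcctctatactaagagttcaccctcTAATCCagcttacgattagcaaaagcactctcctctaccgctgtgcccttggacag
Cabp4 (chr1:210862633-210862882, minus strand, GRCr8): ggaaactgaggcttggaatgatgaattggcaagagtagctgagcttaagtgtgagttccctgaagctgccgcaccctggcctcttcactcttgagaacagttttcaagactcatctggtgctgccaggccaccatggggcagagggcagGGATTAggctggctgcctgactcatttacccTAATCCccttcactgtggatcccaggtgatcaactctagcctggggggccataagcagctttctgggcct
Ctbp2 (chr1:197241904-197242153, minus strand, GRCr8): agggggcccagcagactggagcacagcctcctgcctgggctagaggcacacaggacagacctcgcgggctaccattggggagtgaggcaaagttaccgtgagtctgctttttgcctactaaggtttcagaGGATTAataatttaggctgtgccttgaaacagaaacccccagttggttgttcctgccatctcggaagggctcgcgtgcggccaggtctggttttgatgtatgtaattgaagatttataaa
Syt4 (chr18:23320864-23321113, minus strand, GRCr8): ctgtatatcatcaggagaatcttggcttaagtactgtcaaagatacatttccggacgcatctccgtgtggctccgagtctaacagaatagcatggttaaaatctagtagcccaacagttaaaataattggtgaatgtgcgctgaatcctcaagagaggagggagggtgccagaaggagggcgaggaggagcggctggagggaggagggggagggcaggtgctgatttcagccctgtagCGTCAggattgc

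TAATCC stood on either strand in 4 of 58 windows, those of Cabp4, Cplx4, Ctbp2 and Rims3 (6.90%), against 6.34% of all 33469 windows in the table. In Cabp4 it occurred on both strands, its first base 70 and 101 bases before the start, in Cplx4 56 bases and in Ctbp2 120 bases before. The Cplx3 window held CACGTG 191 bases before the start, a motif of 5 of the 58 windows (8.62%) and of 5.59% of all. TGACG stood on either strand in 13 of the 58 windows (22.4%) and 18.2% of all, with that of Syt4 12 bases before the start. The full element TGACGTCA, which contains TGACG on both strands, occurred in the windows of Syn1 and Vamp1, which are 3.45% of the 58, and in 1.59% of all. These are matches of letters only.

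Synaptotagmins are vesicle proteins, several of which trigger release when they bind calcium. Of the 15 genes, 6 reached 1 FPKM in a pineal library. Syt1, the fast calcium sensor of synapses (chr7:47243374-47795496), led with 131 FPKM by night, 105 FPKM by day and 63.8 FPKM in the mixed tissues (log2 1.02 and 0.71). Syt2, its closest relative in the hindbrain and spinal cord, was at 0.0499, 0.0338 and 28.0 FPKM, and Syt7, a slow high-affinity sensor, at 0.144, 0.104 and 23.8 FPKM. Those pineal values lie below the level that 3 fragments give a 1 kb transcript, 0.57 FPKM by night and 0.34 FPKM by day. Syt11, a synaptotagmin that does not bind calcium, was at 10.6, 11.9 and 79.4 FPKM (log2 -2.79 and -2.65). Of all genes compared, 14.4% by night and 13.2% by day were at least 4-fold below the mixed tissues, and 3.09% and 2.29% above. Of 13 synaptotagmins compared, 7 were at least 4-fold below the mixed tissues and 0 above, by night as by day. Besides Syt2, Syt7 and Syt11 these were Syt5, Syt12, Syt13 and Syt17, at 5.98 to 12.5 FPKM in the mixed tissues and at most 1.43 FPKM in the gland. Syt2, Syt7, Syt12, Syt13 and Syt17 were under 1 FPKM in both pineal libraries, and Syt5 was by night. Such genes were compared only through their mixed-tissue level, so they could only come out lower. Syt4 was the 1 synaptotagmin past 2-fold between night and day, and is described with that comparison. Syt9, at 5.30, 7.87 and 4.59 FPKM, carries a name to read with care, since RefSeq lists SytIX as a synonym of Syt5.

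Syntaxin-binding proteins act on syntaxins before fusion. Stxbp5, or tomosyn, which binds Snap25 and syntaxins and holds back SNARE assembly, was at 26.6, 25.6 and 12.0 FPKM over its 3 entries. Stxbp4 was at 10.95, 7.19 and 2.41 FPKM (log2 1.81 and 1.26), and Stxbp6, or amisyn, was listed at 0 by night and at 0.179 FPKM by day, against 8.82 FPKM in the mixed tissues.

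Among the membrane proteins of vesicles, synaptophysin stood out. Syp (chrX:26894446-26905292) was at 507 FPKM by night, 540 FPKM by day and 120 FPKM in the mixed tissues, a log2 ratio of 2.07 by night and 2.16 by day, and ranked 23, 19 and 253 of all genes. The synapsins, which tie vesicles together at conventional synapses and are known to be missing from retinal ribbon synapses, were present at moderate levels: Syn1 at 17.1, 19.4 and 58.9 FPKM and Syn2 at 26.1, 24.99 and 33.7 FPKM. With Syn3 their sum was 45.8 FPKM by night, 46.1 FPKM by day and 95.4 FPKM in the mixed tissues. Timp1, Timp4 and Timp3 lie within the spans of Syn1, Syn2 and Syn3, and their part in these values was not tested. A separate Syn1 entry of 454 bp held 11.6% of the Syn1 level by night, 15.3% by day and 26.7% in the mixed tissues. The SV2 proteins, transporter-like glycoproteins of vesicles, were led by Sv2b in the gland (26.3 FPKM by night, 52.0 FPKM by day), against 30.1 FPKM in the mixed tissues. Sv2a, at 15.7 FPKM by night, 15.8 FPKM by day and 53.4 FPKM in the mixed tissues, led there. Sv2c was at 0.0512, 0.138 and 6.97 FPKM. Snap91, the clathrin adaptor AP180 and no SNARE despite its symbol, was at 23.8, 24.3 and 41.4 FPKM.

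Among active zone and priming proteins, some paralogs lay above the mixed tissues and others below or near them. Unc13 proteins prime vesicles for fusion. Unc13b, or Munc13-2 (chr5:59551927-59768901), was at 26.4 FPKM by night, 26.0 FPKM by day and 5.61 FPKM in the mixed tissues (log2 2.05 and 2.03), and held 69.5%, 80.4% and 24.4% of its family's level. Its ratio was inside 4-fold with a pseudocount of 5 (1.56 and 1.55). Tmsb4x, an abundant gene at 201, 186 and 272 FPKM, lies within its span, and its part in the value was not tested. Unc13c was at 0.0557, 0.0597 and 5.38 FPKM, and Unc13a at 10.6, 5.82 and 9.68 FPKM.

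RIM proteins link vesicles to calcium channels. Rims1 was at 0.224 FPKM by night, 0.144 FPKM by day and 8.20 FPKM in the mixed tissues (log2 -2.91 and -3.01). Rims2, the RIM gene with the main role at photoreceptor ribbons in the mouse, was at 12.4, 11.03 and 10.1 FPKM, and Rims4, a short RIM, at 18.3, 20.3 and 5.82 FPKM. Rph3a, a Rab3 effector on vesicles, was at 0.874, 1.03 and 30.03 FPKM (log2 -4.05 and -3.94). The scaffold Bsn was at 8.69, 5.31 and 6.20 FPKM. Pclo was at 2.77, 2.87 and 5.88 FPKM over its 2 entries.

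The entries of a symbol did not always move together. The longer Pclo entry (chr4:15911050-16269090) was at 0.377 FPKM by night, 0.295 FPKM by day and 3.27 FPKM in the mixed tissues, and made up 13.6%, 10.3% and 55.5% of the symbol's sum. The shorter one was at 2.40, 2.57 and 2.61 FPKM. The Unc13b entry with the longer span held 98.7%, 95.7% and 81.7% of its symbol's level. The short Rims2 entry (chr7:75235482-75271771) held 31.9% by night, 50.3% by day and 26.3% in the mixed tissues. Entries that share exons divide the same reads by a model, so these shares are estimates of the authors' software.

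Both genes of the ribbon group were expressed in the gland. Ctbp2 (chr1:192463614-192492935), which encodes the corepressor CtBP2 and the ribbon protein RIBEYE, was at 37.9 FPKM by night, 51.7 FPKM by day and 13.6 FPKM in the mixed tissues (log2 1.41 and 1.85). The day value passed 4-fold with the libraries centred (2.12). The tables give 1 entry for it, which does not tell both products apart. Cabp4 (chr1:206718301-206722801), which tunes the calcium channel of photoreceptor terminals, was at 9.59 FPKM by night, 38.9 FPKM by day and 23.9 FPKM in the mixed tissues.

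Between night and day, 52 of 56 genes compared were within 2-fold (92.9%), close to the 93.7% of all genes that were. Of the others, 3 stood 2-fold or more above the day level at night (5.36%, against 4.18% of all genes) and 1 as far below it (1.79%, against 2.11% of all genes). Their median log2 ratio was -0.03, beside -0.11 for all genes, and their median distance from 0 was 0.21, beside 0.27. The other 16 were under 1 FPKM in both libraries. Snap25, Sv2a, Stx8 and Unc13b had log2 ratios of 0.01, -0.01, -0.02 and 0.02.

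Syt4 had the largest difference. It was at 96.9 FPKM by night, 15.2 FPKM by day and 33.8 FPKM in the mixed tissues (chr18:23805079-23814489), a 6.38-fold higher level by night (log2 2.60), and ranked 324 of all genes by night and 3217 by day. Syt4 encodes a synaptotagmin of secretory granules whose first calcium-binding domain has lost an essential residue, and in rat cell lines it is known to be induced by depolarisation. It held 39.0% of summed synaptotagmin FPKM by night and 10.3% by day, while the share of Syt1 was 52.6% by night and 71.5% by day. For a 1 kb transcript the 95% counting bounds would be 88.7 to 106 FPKM by night and 12.7 to 18.0 FPKM by day, which do not overlap. They do not cover differences between animals.

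Vamp5 and Cplx2 were the other genes past 2-fold on the night side, at low levels. Vamp5, a VAMP of muscle and endothelium, was at 3.21 FPKM by night, 0.684 FPKM by day and 5.33 FPKM in the mixed tissues, where the 1 kb bounds are 1.87 to 5.14 FPKM by night and 0.25 to 1.49 FPKM by day (night over day log2 1.32). Its neighbour Vamp8, 17.6 kb away, was at 24.5 FPKM by night and 34.5 FPKM by day. Cplx2 also stood at a log2 ratio of 1.32, with 3.58 FPKM by night (1 kb bounds 2.15 to 5.59) and 0.834 FPKM by day (0.343 to 1.69). The Cplx2 entry (chr17:16314591-16322938) lies wholly within an unnamed transcribed region, PFAR12 (chr17:16296599-16393000), which was at 5.98 FPKM by night, 0.120 FPKM by day and 2.88 FPKM in the mixed tissues (night over day log2 2.64). Reads of that region cannot be told apart from those of Cplx2 in these files, and its part in the Cplx2 value was not tested. With a pseudocount of 5 the Cplx2 ratio was inside 2-fold (0.56).

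On the FPKM + 1 scale, Cabp4 was the gene past 2-fold on the lower side (log2 -1.91), with a level 4.06-fold lower by night. The 1 kb bounds are 7.14 to 12.6 FPKM by night and 34.9 to 43.3 FPKM by day. Sv2b was just inside 2-fold on the FPKM + 1 scale (log2 -0.96), a level 1.97-fold lower by night. Stx19 (log2 -0.85), Stx17 (-0.76) and Syt5 (-0.58) were also lower by night and inside 2-fold on that scale. By plain FPKM, at low levels, Stx19 was 3.02-fold and Syt5 2.29-fold lower by night. Their 1 kb bounds overlap. Those of Stx19 are 0.161 to 1.8 FPKM by night and 1.18 to 3.19 FPKM by day. For Syt5 they are 0.144 to 1.75 FPKM by night and 0.753 to 2.48 FPKM by day. Stx19 lies within the span of Arl13b, at 6.06 FPKM by night and 9.57 FPKM by day, and Syt5 within that of Il11. The part of Arl13b and Il11 in these values was not tested. On the higher side and within 2-fold were Unc13a (log2 0.77), Bsn (0.62), Stxbp4 (0.55) and Cplx3 (0.53). Glial markers were also lower by night. Of 4 astrocyte markers 3 were found, which summed to 13.8 FPKM by night and 24.2 FPKM by day. Oligodendrocyte markers summed to 15.9 FPKM by night and 29.9 FPKM by day. The part of glial cells in the night and day differences was not tested.

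**Figure D4:**
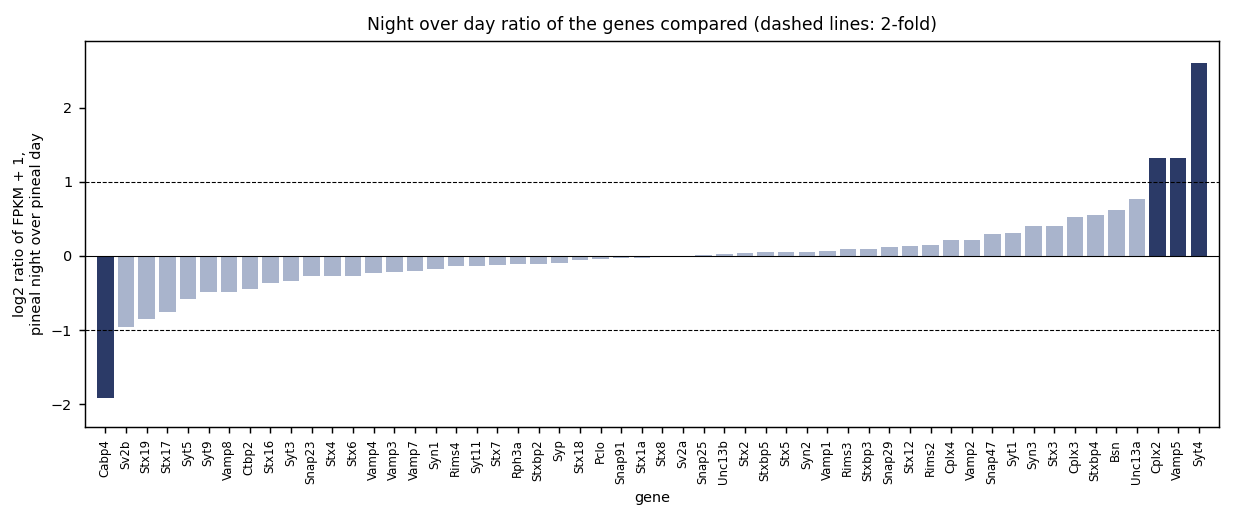
Log2 ratio of FPKM + 1, pineal night over pineal day, of 54 of the 56 genes compared, in order of the ratio, with dashed lines at 2-fold and dark bars beyond them. Cabp4 lies below at -1.91, and Cplx2, Vamp5 and Syt4 lie above at 1.32, 1.32 and 2.60.

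Other genes of vesicle release and recycling, 75 symbols in 6 lists of which 66 were found, were set beside them. Between night and day, 51 of 54 compared were within 2-fold (94.4%, against 93.7% of all genes), 2 were higher and 1 was lower. The higher ones were Slc17a6, a vesicular glutamate transporter, at 116 FPKM by night and 22.8 FPKM by day (log2 2.30), and Dnm2, the ubiquitous dynamin of endocytosis, at 76.0 and 31.4 FPKM (log2 1.25). Ppfia4, a liprin, was lower, at 1.71 and 4.73 FPKM (log2 -1.08), and came inside 2-fold with the libraries centred (-0.97). Relative to the mixed tissues, 4 of 61 lay 4-fold or more above by night (6.56%, against 3.09% of all genes) and 4 of 60 by day (6.67%, against 2.29%). As far below lay 8 by night (13.1%, against 14.4% of all genes) and 7 by day (11.7%, against 13.2%). Here too, genes under 1 FPKM in the gland were compared only through the mixed tissues and could only come out lower.

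The list for calcium entry at photoreceptor terminals and partners of the ribbon held 7 genes. Of these, 2 lay 4-fold or more above the mixed tissues by night and by day. Of all genes compared, 3.09% by night and 2.29% by day did. Cacna1f, the pore subunit of the calcium channel in photoreceptors, was at 73.1 FPKM by night, 86.7 FPKM by day and 9.40 FPKM in the mixed tissues (log2 2.83 and 3.08), and Cacna2d4, its accessory subunit, at 35.6, 57.9 and 5.88 FPKM (log2 2.41 and 3.10). Cacnb2, a beta subunit of calcium channels, was near the mixed tissues at 7.99, 15.4 and 11.1 FPKM (log2 -0.43 and 0.44). Unc119, a photoreceptor chaperone of lipid-modified proteins, was at 168, 234 and 70.6 FPKM. Slc17a7, the other glutamate transporter, was at 499, 582 and 90.7 FPKM (log2 2.45 and 2.67), whereas Slc32a1, the transporter for GABA and glycine, was listed at 0 by night and at 0.0669 FPKM by day, against 24.2 FPKM in the mixed tissues. Cltb, a clathrin light chain, was at 202, 274 and 58.8 FPKM (log2 1.77 and 2.20).

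Genes 4-fold or more below the mixed tissues came from several of the lists. Rab3b, a small GTPase of secretory vesicles, was at 0.735 FPKM by night, 1.53 FPKM by day and 21.4 FPKM in the mixed tissues, Synpr, or synaptoporin, at 0.417, 0.194 and 15.6 FPKM, and Doc2b, a calcium sensor, at 0.167, 0.163 and 8.52 FPKM. Cadps, a priming factor of dense-core vesicles, was at 4.19, 2.02 and 25.7 FPKM. Sypl2, a muscle relative of synaptophysin, was listed at 0 in both pineal libraries and at 18.6 FPKM in the mixed tissues. Other genes of the same lists were within 4-fold. Syngr1, a vesicle protein of the synaptogyrin family, was at 45.4, 69.8 and 42.5 FPKM (log2 0.09 and 0.70). Nsf, the ATPase that takes SNARE complexes apart, was at 151, 134 and 87.3 FPKM (log2 0.79 and 0.62), and Rab3a, the main Rab of synaptic vesicles, at 117, 72.7 and 145 FPKM (log2 -0.31 and -0.98).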

How the data were processed

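The 3 libraries were poly(A)-selected, randomly primed and sequenced as paired ends, per the labels' protocols. The deposited values are FPKM computed by the authors. Cufflinks 1.2.0, TopHat 1.3.1 and the rat build rn4 are named, per the submitters' processing notes. Their settings were not given in the sources used here. Series table and sample files agreed in 51267 of 51267 values. Entries of 1 symbol were summed (6 of the 72 genes had several). Comparison needed FPKM of 1 or more in either library of a pair and used the log2 ratio of FPKM + 1; calls mean at least 2-fold (night over day) or 4-fold (against mixed tissues). Background shares were counted over the whole table. The genes, lists and naming rule (FPKM of at least 20 in any library, or past the fold with at least 5 in the higher one, given in full) were chosen with earlier results of these data known.

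The files give no read counts. Depth was estimated from 1306 olfactory, vomeronasal and trace amine receptor models with spans of 800 to 1100 bp, most listed at 0, whose lowest values repeat at the worth of 1 fragment: 5.29, 8.74 and 9.57 fragments per kb at 1 FPKM for pineal night (4 models), pineal day (20 models) and mixed tissues (21 models). By this estimate the night library had 60.5% of the day library's depth. Values at 2 fragments were 1.76 times those at 1 fragment by night, where exact steps would give 2. That ratio was 1.97 by day and 2.0 in the mixed tissues. The night floor and bounds rest on the night estimate. Exact Poisson bounds (95%) for a 1 kb transcript and floors of 3 fragments cover counting error only. Transcript lengths were not used. Python 3.11.15, pandas 2.3.3, numpy 2.4.6, scipy 1.17.1 and matplotlib 3.10.9 were used. Some genes of the lists are counted but not reported here by name.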

Additional observations from a re-analysis of the deposited data

Results flagged for a closer look

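Syt4 was set apart because it lay on opposite sides of the mixed tissues at the 2 times of sampling, at least 2-fold above them by night (log2 1.49) and at least 2-fold below them by day (log2 -1.10). Each group had 1 library and both ratios use the same mixed-tissue library, so the difference was not tested. None of the other 71 genes did so at that size.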

How the results depend on the processing

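Genes past 2-fold between night and day numbered 3 higher and 1 lower. A pseudocount of 0.1 gave 3 lower, and a pseudocount of 5 or a filter at FPKM 5 gave 1 higher, Syt4. Their median was 0.08 with the libraries centred (main -0.03). By day against the mixed tissues, 5 were higher with the libraries centred (main count 3), 7 were lower with a pseudocount of 5 (main count 15), and the median was -0.66 with a pseudocount of 0.1, -0.32 with one of 5 and -0.27 when centred (main -0.54). By night against the mixed tissues, 7 were lower with a pseudocount of 5 (main 15), and the median was -0.32 with that pseudocount and -0.18 when centred (main -0.54). The pseudocount of 5 narrows ratios of low genes by construction; for the other changes the cause was not tested. Centring shifts all genes by 0.11, 0.27 and 0.36 on the log2 scale, night over day, day over mixed and night over mixed. Single values were followed for the 41 of the 72 genes that met the naming rule and the 66 found genes of the 6 further lists. None of these genes changed direction while past its threshold: 1641 single values kept their side, 33 came inside it and 17 passed it. Taking the highest entry of a symbol, using no filter, and leaving out the 8 genes whose span overlaps another entry (chosen after seeing the data) kept each count within 1.5 times and each median within 0.1. Without those 8, 2 were higher and 1 lower by night, Syt4, Vamp5 and Cabp4. No paired analysis was possible because each group holds 1 library. Depth limits genes under about 0.57 FPKM by night and 0.34 by day.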
